A study of Homo sapiens with 48 samples.

Results

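Growing cells need new ribosomes and the nucleotides to build them, and 45 genes of these linked pathways were followed in stimulated human skin fibroblasts. The genes were chosen by name and by known role from the 29744 genes of the deposited tables, and all 45 were found there. Earlier results of these data were known when they were chosen, so shares of members set against all genes below are descriptive. By role they comprised the regulator MYC, 2 subunits of RNA polymerase I, 7 genes of small nucleolar ribonucleoproteins (snoRNPs), 11 of small-subunit and 8 of large-subunit assembly, 3 abundant nucleolar proteins, 4 genes of pyrimidine and 9 of purine synthesis. The cells were of the IL11mNG line, the immortalized fibroblast line CRL-4001 carrying mNeonGreen at IL11 and sorted as clones from single cells. One arm expressed Cas9, with a non-targeting guide (H47_Ctrl) or a guide that cuts GLIS3, a zinc-finger transcription factor (H47_KO). The other arm expressed dCas9-VP64, a cutting-dead Cas9 fused to an activation domain, with a non-targeting guide (VP64_Ctrl) or a guide to the GLIS3 promoter (VP64_A). Guides were delivered by lentivirus and bulk selected populations were used, so cells within a population could carry different edits. Each of the 4 groups was collected after 0, 6, 12 or 24 h with TGFβ and IL-1β at 10 ng/ml each, with 3 libraries per condition, 16 conditions and 48 libraries. All groups carried the reporter, and the 0 h cells received no cytokine. Whether both arms came from the same clone is not given in the sources used here. The labels do not say that the 3 libraries of a condition came from separate cultures, so p-values measure only the spread between these libraries, which may be technical.

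Ribosome production starts in the nucleolus, where RNA polymerase I copies the ribosomal DNA. The transcript is modified by snoRNPs, cut and folded with assembly factors, and exported as small and large subunits. MYC is known as a regulator that couples this process, and the nucleotide supply it needs, to growth signals, and fibroblasts are known to raise MYC soon after growth factors arrive. Purines and pyrimidines are made from phosphoribosyl pyrophosphate (PRPP), amino acids and one-carbon units, or are recovered by salvage enzymes.

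The libraries held between 2321990 and 10661004 estimated counts, with a median of 5139646. GLIS3, the targeted gene, lay between 1.45 and 6.47 CPM (counts scaled to a common library size) in H47_Ctrl, 0.144 and 1.64 in H47_KO, 1.91 and 6.31 in VP64_Ctrl, and 16.6 and 36.7 in VP64_A. Pooled over all times, the knockout and control ranges thus overlapped and the activation ranges did not. At 0 h alone the H47_KO libraries held 0.354, 0.144 and 0.395 CPM, below every H47_Ctrl library. The overlap was between different times. In H47_Ctrl every library at 6, 12 and 24 h lay above every 0 h library, so its lowest value was from 0 h, while the highest H47_KO value was from 24 h. In the dCas9-VP64 arm a library called control by its title is called activated by its description, and the reverse. Groups were taken from the descriptions, which are also the column names, and the GLIS3 levels went with them. The 10 fibroblast markers summed to between 15780 and 33600 TPM (transcripts scaled for length and library total) in every library, whereas the keratinocyte, epithelial, endothelial, leukocyte and melanocyte sums reached at most 84.6, 0.125, 0.615, 2.35 and 0.879 TPM. Replicate 3 of VP64_Ctrl at 0 h stood apart from replicates 1 and 2 of its condition, with a correlation of log2 CPM across genes of 0.964 and 0.962 against 0.985 between those 2, and the 3 H47_KO libraries at 24 h correlated at 0.948 to 0.965. Single pairs elsewhere were as low, such as 0.9618 for replicates 1 and 3 of VP64_A at 12 h and 0.9635 for replicates 2 and 3 of VP64_Ctrl at 24 h. These were bulk samples, so fewer cells of a type and less RNA per cell cannot be told apart.

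All 45 genes passed the filter on low counts in both arms. Per length, on the TPM scale, the median level over the 48 libraries spanned from 2230.0 TPM for NPM1, a histone chaperone and export factor of the nucleolus, to 1.21 TPM for UTP20, a component of the small-subunit processome. NCL (nucleolin, an rRNA-binding protein) followed at 315 TPM, then NHP2, a core protein of H/ACA snoRNPs, at 192, CTPS1, which makes CTP from UTP, at 156, and IMPDH2, the committed enzyme of guanine nucleotide synthesis, at 139. The 2 catalytic subunits of RNA polymerase I were near the low end, POLR1B at 4.30 and POLR1A at 2.91 TPM. NPM1 has near-identical pseudogenes, and reads could have been split among them, so its level is uncertain. A single library gave a member between 6 and 35851 counts.

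Stimulation moved individual genes of these pathways in both directions. A gene is said to have risen or fallen where edgeR's quasi-likelihood test gave a Benjamini-Hochberg adjusted p below 0.05 over all genes tested, and changes are log2 fold changes against 0 h of the same group. At 6 h, 4 members rose and 4 fell in H47_Ctrl (10.3% and 5.6% of all genes tested did so), and 5 and 8 in H47_KO (13.2% and 10.8%). The numbers were 6 and 10 in VP64_Ctrl (16.2% and 12.6%) and 3 and 7 in VP64_A (11.4% and 5.93%). At 12 h, 8 rose and 2 fell in H47_Ctrl (11.3% and 8.27%), and 9 and 3 in H47_KO (14.4% and 13%), with 8 and 5 in VP64_Ctrl (15.3% and 11.5%) and 3 and 6 in VP64_A (12.6% and 7.1%). At 24 h, 2 rose and 0 fell in H47_Ctrl (6.53% and 3.73%), 1 and 4 in H47_KO (9.07% and 6.78%), 2 and 2 in VP64_Ctrl (10.4% and 5.57%), and 1 and 11 in VP64_A (9% and 4.55%). The last was 24.4% of the 45 members, and 37 of the 45 had a negative change there, with a median of -0.29 against 0.00 over all genes. Elsewhere the members' median stayed between -0.17 and 0.15. In all, 33 members were called in at least 1 of the 12 comparisons in time, which share their 0 h libraries within each group. The share of all genes so called was not computed, so the 33 cannot be set against it.

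**Figure D1:**
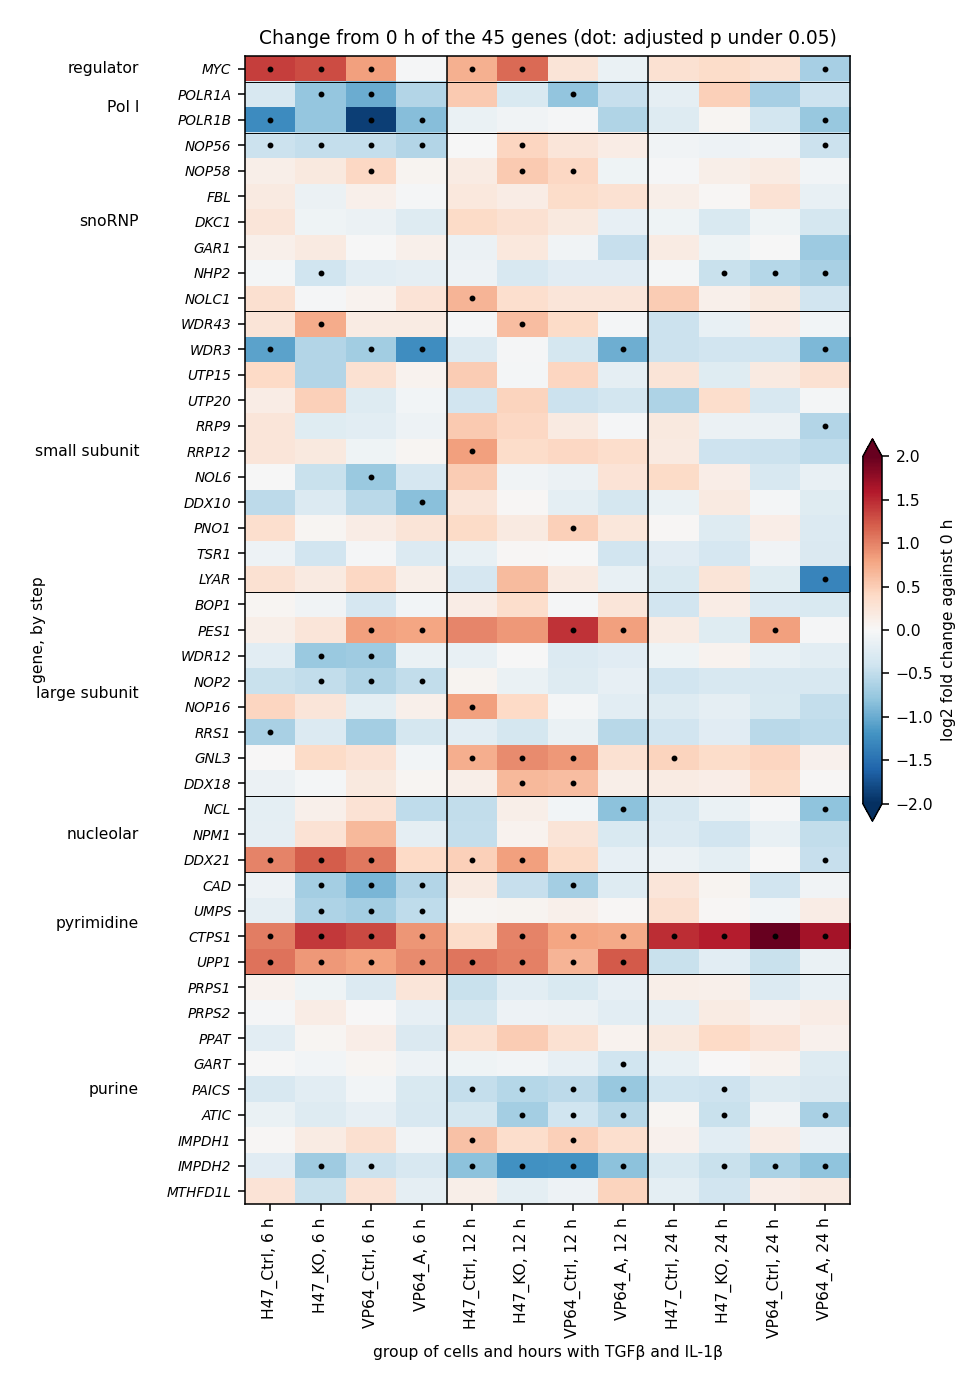
Log2 fold change against 0 h (colour) of the 45 genes, ordered by step of the pathway, in the 4 groups at 6, 12 and 24 h, with a dot where the adjusted p was below 0.05 (edgeR). CTPS1 carries a dot in 11 of the 12 columns, IMPDH2 in 9 and UPP1 in 8, while the 24 h column of VP64_A is mostly on the negative side.

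Some counts rested on 1 library. At 6 h in H47_KO the number of called members went from 13 to 7 without replicate 3 at 0 h and to 6 without replicate 2 at 6 h, and at 24 h from 5 to 1 or 2 without replicate 1 or 2 of either time. At 24 h in H47_Ctrl 1 of 2 was left without replicate 3 at 0 h, replicate 1 at 24 h or replicate 2 at 24 h. In VP64_Ctrl the 16 calls at 6 h became 10 without replicate 2 at 6 h, the 13 at 12 h became 8 without replicate 2 at 0 h, 6 without replicate 2 at 12 h and 8 without replicate 3 at 12 h. The 4 at 24 h became 7 without replicate 1 at 0 h and 8 without replicate 3 at 24 h. In VP64_A the 10 calls at 6 h became 5 without replicate 3 at 0 h. Of the 132 calls of members over all comparisons, 71 held in every fit that left out 1 library. On the TPM scale the median of all genes itself moved by -0.65, -0.51 and -0.32 at 6, 12 and 24 h in VP64_Ctrl, by -0.43, -0.25 and 0.13 in H47_KO, and by -0.11 to -0.22 in H47_Ctrl and VP64_A, so that a member at 0 by CPM lay near these values there. The TPM sum of 20 proliferation genes was lower at 6 and 12 h in all 4 groups. Its median TPM went from 2005 to 1370, 1315 and 1854 in H47_Ctrl and from 1588 to 1102, 1026 and 1967 in H47_KO. In VP64_Ctrl it went from 1930 to 1057, 1324 and 2010, and in VP64_A from 1623 to 1081, 1079 and 1615. At 24 h it was near its start, except that the H47_KO median was above it, with overlapping ranges. The shift of all genes on the TPM scale, given above, was not taken out of these sums. How much of their fall went beyond that shift was not tested. The part of the cell cycle in the changes below was not tested.

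MYC, the transcription factor at the head of the pathway, more than doubled by 6 h in the Cas9 arm. The H47_Ctrl libraries held 23.5, 20.3 and 23.5 CPM at 0 h, 52.8, 61.9 and 60.6 at 6 h, 32.4, 40.9 and 36.6 at 12 h, and 26.8, 20.1 and 34.5 at 24 h. The H47_KO libraries went from 18.7, 19.3 and 20.4 CPM at 0 h to 49, 45.6 and 49.7 at 6 h, 46.1, 34.5 and 48 at 12 h, and 23.8, 18.5 and 31 at 24 h. In both groups every library at 6 and 12 h stood above every library at 0 h, and at 24 h the ranges overlapped with those at 0 h. The rises were 1.38 ± 0.18 (SE, adjusted p = 3.32e-07) and 1.30 ± 0.18 (adjusted p = 1.53e-06) at 6 h and 0.71 ± 0.19 and 1.13 ± 0.18 at 12 h, and none of the 4 was lost when 1 library was left out.

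In VP64_Ctrl the MYC level rose from 22, 26 and 15.3 CPM to 45.5, 36.1 and 29 at 6 h, again without overlap (0.83 ± 0.20, adjusted p = 0.00177), and stood at 27, 26.6 and 22.7 at 12 h and 26.3, 27.2 and 25.4 at 24 h. The VP64_A libraries already held 49.0, 33.5 and 41.5 CPM at 0 h and 41.7, 43.5 and 37.5 at 6 h, a difference of -0.02 ± 0.19 (adjusted p = 0.971). They held 28, 46.5 and 36.6 CPM at 12 h, and at 24 h 29, 27.8 and 22.4 CPM, below all 3 libraries at 0 h (-0.66 ± 0.20, adjusted p = 0.0197), a call that was lost without replicate 1 at 0 h or replicate 3 at 24 h. Over the 6 fits that left out 1 library the change lay between -0.82 and -0.51.

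MYC and its partner MAX bind the letters CACGTG, the E-box, which reads the same on both strands. RefSeq promoter windows (GRCh38.p14, 250 bases before to 50 after a start site) were matched for 37 of the 45 genes, with 53 windows in all. CACGTG was present in 18 of these windows (34%), belonging to 16 genes, against 2548 of 35116 windows of all genes (7.26%) and 1165 of 12566 windows of the genes tested (9.27%). Of the 9 members with no call in any comparison, 5 (FBL, GAR1, UTP20, PPAT and MTHFD1L) were among the 16. The 5 windows below are shown because they hold the motif and belong to the members with the most calls, each written 5′ to 3′ on the gene's own strand with every CACGTG in capitals.
DDX21, chr10:68956397-68956696, plus strand, motif at -31: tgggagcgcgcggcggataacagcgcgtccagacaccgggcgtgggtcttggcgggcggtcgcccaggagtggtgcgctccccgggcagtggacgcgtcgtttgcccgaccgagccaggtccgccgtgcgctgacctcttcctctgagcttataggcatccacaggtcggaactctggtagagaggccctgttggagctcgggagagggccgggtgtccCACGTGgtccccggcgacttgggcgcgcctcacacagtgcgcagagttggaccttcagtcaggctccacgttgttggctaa
GNL3, chr3:52685782-52686081, plus strand, motif at 7: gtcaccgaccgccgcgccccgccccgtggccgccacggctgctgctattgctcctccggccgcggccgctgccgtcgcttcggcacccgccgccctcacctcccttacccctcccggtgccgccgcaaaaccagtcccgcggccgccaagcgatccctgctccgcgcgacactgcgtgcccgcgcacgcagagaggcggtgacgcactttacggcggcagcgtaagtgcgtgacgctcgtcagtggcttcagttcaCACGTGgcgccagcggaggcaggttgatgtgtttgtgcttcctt
PES1, chr22:30591861-30592160, minus strand, motif at 14: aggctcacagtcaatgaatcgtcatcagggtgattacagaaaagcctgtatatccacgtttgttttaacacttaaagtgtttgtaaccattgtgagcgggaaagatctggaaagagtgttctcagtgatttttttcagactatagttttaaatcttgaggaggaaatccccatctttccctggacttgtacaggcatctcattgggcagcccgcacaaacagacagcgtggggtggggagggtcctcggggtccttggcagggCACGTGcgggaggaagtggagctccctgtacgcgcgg
PAICS, chr4:56435502-56435801, plus strand, motif at 41: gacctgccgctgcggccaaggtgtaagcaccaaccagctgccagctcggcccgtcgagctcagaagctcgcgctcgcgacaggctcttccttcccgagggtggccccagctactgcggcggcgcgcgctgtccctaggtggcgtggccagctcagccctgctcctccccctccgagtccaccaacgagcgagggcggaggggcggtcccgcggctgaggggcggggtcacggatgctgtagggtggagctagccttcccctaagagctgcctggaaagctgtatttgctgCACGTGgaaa
ATIC, chr2:215311809-215312108, plus strand, motifs at -46 and 30: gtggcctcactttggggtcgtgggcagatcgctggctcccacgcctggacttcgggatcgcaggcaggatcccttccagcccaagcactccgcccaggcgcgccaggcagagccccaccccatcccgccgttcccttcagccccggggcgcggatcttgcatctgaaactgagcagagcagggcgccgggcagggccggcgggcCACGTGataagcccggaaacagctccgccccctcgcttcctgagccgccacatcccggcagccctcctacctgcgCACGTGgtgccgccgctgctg
A motif match describes the letters of a window and shows no binding. The 5 genes did not share a time course. DDX21 rose at 6 h in 3 groups and at 12 h in 2, and fell at 24 h in 1. GNL3 rose at 12 h in 3 groups and at 24 h in 1. PES1 rose at 6 and 12 h in 2 groups each and at 24 h in 1. PAICS fell at 12 h in 4 groups and at 24 h in 1, and ATIC in 3 and 2.

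The catalytic subunits of RNA polymerase I fell at 6 h, POLR1B in 3 and POLR1A in 2 of the 4 groups. POLR1B, the second-largest subunit, went in VP64_Ctrl from 23, 20.7 and 19.3 CPM to 5.44, 4.29 and 8.69 at 6 h and stood at 21.9, 20.4 and 19.6 at 12 h and 15.3, 24.3 and 11.4 at 24 h. In H47_Ctrl it held 22.3, 15.9 and 16.5 CPM at 0 h, 3.88, 9.35 and 10.6 at 6 h, 12.9, 18.6 and 18.9 at 12 h, and 15.8, 12.2 and 17.4 at 24 h. The H47_KO libraries held 14.1, 18.8 and 17.9 CPM at 0 h, 11, 8.92 and 9.68 at 6 h, 11.5, 17 and 20.9 at 12 h, and 13.8, 14 and 23.6 at 24 h. The VP64_A libraries held 27, 23.8 and 23.4 CPM at 0 h, 13.6, 14.9 and 12.4 at 6 h, 15, 15 and 19.2 at 12 h, and 9.66, 15.1 and 18.6 at 24 h. Every 6 h library was below every 0 h library in all 4 groups, with a fall of 1.89 ± 0.27 in VP64_Ctrl (adjusted p = 1.5e-06), which was the largest fall of a member in any comparison. The change was -1.26 ± 0.29 in H47_Ctrl and -0.86 ± 0.23 in VP64_A, and -0.77 with an adjusted p of 0.0569 in H47_KO. At 12 h the differences from 0 h lay between -0.59 and -0.03 and none passed the test. At 24 h POLR1B was called lower in VP64_A (-0.75 ± 0.23, adjusted p = 0.0233, lost in 3 of 6 fits) and in no other group.

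POLR1A, the largest subunit, changed less evenly. VP64_Ctrl held 17.1, 25.9 and 35.5 CPM at 0 h, 12, 10.9 and 18 at 6 h, 15.4, 14.8 and 15.1 at 12 h, and 11.5, 13 and 23.5 at 24 h, the 0 h libraries differing widely among themselves. VP64_A held 14.9, 17.5 and 24.9 CPM at 0 h, 11.1, 12.8 and 14 at 6 h, 9.21, 11 and 20.6 at 12 h, and 14.6, 10.6 and 16.6 at 24 h, with all 6 h libraries below all 0 h libraries but no call. H47_KO held 13.8, 18.3 and 22.3 CPM at 0 h, 8.57, 9.91 and 13.2 at 6 h, 14.4, 13.8 and 16.2 at 12 h, and 21.9, 20.9 and 32.2 at 24 h, its 24 h libraries reaching above those at 0 h. H47_Ctrl held 16.9, 13.5 and 9.18 CPM at 0 h, 10.9, 9.16 and 12.5 at 6 h, 15.1, 14.7 and 28.7 at 12 h, and 12.6, 9.82 and 12.6 at 24 h, overlapping at every time. The gene fell at 6 h in H47_KO (-0.77 ± 0.27) and VP64_Ctrl (-1.0 ± 0.29) and at 12 h in VP64_Ctrl (-0.78 ± 0.28), but these 3 calls were lost in 4, 3 and 5 of the 6 fits that left out 1 library.

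Of the 7 snoRNP genes, NOP56 fell and the catalytic proteins did not pass the test. NOP56, a scaffold of box C/D particles, fell at 6 h in all 4 groups by similar amounts, -0.43 ± 0.14, -0.48 ± 0.14, -0.48 ± 0.15 and -0.58 ± 0.15 in H47_Ctrl, H47_KO, VP64_Ctrl and VP64_A, with no overlap between 0 and 6 h libraries in any of them. H47_Ctrl held 96, 94.2 and 88.9 CPM at 0 h, 72, 66.9 and 69 at 6 h, 81.3, 95.5 and 101.9 at 12 h, and 99.7, 78.5 and 87 at 24 h. H47_KO held 87, 94.6 and 93.3 CPM at 0 h, 78.5, 58.5 and 59.7 at 6 h, 138, 112.2 and 121.9 at 12 h, and 82.2, 85.6 and 89.1 at 24 h. VP64_Ctrl held 85.9, 99.4 and 75.8 CPM at 0 h, 66.2, 71.2 and 47.5 at 6 h, 107.2, 100.5 and 100.0 at 12 h, and 80.5, 80.7 and 88 at 24 h. VP64_A held 117.2, 114.3 and 130.1 CPM at 0 h, 73.2, 86.7 and 81.2 at 6 h, 116.7, 129.0 and 153 at 12 h, and 90.4, 89.2 and 88.5 at 24 h. At 12 h no group was called lower, and in H47_KO the 12 h rise of 0.44 ± 0.14 passed the test, while at 24 h NOP56 fell again in VP64_A (-0.43 ± 0.15, lost in 5 of 6 fits). Of the falls at 6 h, only that in VP64_A was called in every fit that left out 1 library, the others being lost in 5, 3 and 2 of 6. Its partner NOP58 did not fall, and rose at 6 and 12 h in VP64_Ctrl (0.42 ± 0.16 at both) and at 12 h in H47_KO (0.53 ± 0.17), although the VP64_Ctrl values were -0.31 and -0.17 on the TPM scale. Their calls were lost in 4 or 5 of the 6 fits.

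NHP2, the H/ACA core protein, was lower by 24 h in all groups but H47_Ctrl. VP64_Ctrl held 113.0, 106.8 and 93.3 CPM at 0 h, 88.4, 88.6 and 93.3 at 6 h, 90.8, 84.6 and 93.5 at 12 h, and 69.6, 67.1 and 73.7 at 24 h. VP64_A held 120.0, 131 and 125.5 CPM at 0 h, 112.1, 115.7 and 105.8 at 6 h, 88.7, 106.6 and 124.0 at 12 h, and 84.1, 70 and 86.6 at 24 h. All 24 h libraries were below all 0 h libraries in both, with falls of 0.57 ± 0.14 (adjusted p = 0.00327) and 0.64 ± 0.14 (adjusted p = 0.0011). H47_KO held 114.9, 91.2 and 74.3 CPM at 0 h, 64.1, 68.9 and 78.1 at 6 h, 79.6, 67.1 and 78.8 at 12 h, and 62.6, 64.3 and 77.8 at 24 h, with a fall at 24 h of 0.45 ± 0.15, which like a fall at 6 h (adjusted p = 0.0473) was lost in 4 of 6 fits. H47_Ctrl held 78.2, 94 and 87.8 CPM at 0 h, 84, 84.4 and 85.9 at 6 h, 74.3, 84.1 and 82.7 at 12 h, and 87.9, 86.5 and 78.2 at 24 h, and no change passed the test. FBL, the methyltransferase of box C/D particles, DKC1, the pseudouridine synthase of box H/ACA particles, and GAR1, a further H/ACA protein, were called in no comparison. NOLC1, a snoRNP chaperone, rose once, at 12 h in H47_Ctrl (0.67 ± 0.19), and not without replicate 3 at 0 h or replicate 1 at 12 h (0.52 to 0.84 over the 6 fits). H47_Ctrl held 24, 28.7 and 17.3 CPM at 0 h, 31.1, 34.4 and 22.3 at 6 h, 45.6, 36.3 and 31.2 at 12 h, and 35.2, 32.7 and 32.8 at 24 h. H47_KO held 29.9, 32.6 and 26.7 CPM at 0 h, 35.3, 24.3 and 27.1 at 6 h, 37.9, 36.7 and 37.6 at 12 h, and 32.8, 33.4 and 29.4 at 24 h. VP64_Ctrl held 32.1, 31.4 and 33.2 CPM at 0 h, 39.2, 34.8 and 23.8 at 6 h, 32.4, 41 and 41.8 at 12 h, and 39.6, 39.2 and 32.1 at 24 h. VP64_A held 37.6, 38 and 28 CPM at 0 h, 43.1, 39.5 and 42.7 at 6 h, 29.9, 47.6 and 43.4 at 12 h, and 31.1, 22 and 26.2 at 24 h. The 12 h libraries were above those at 0 h in both groups of the Cas9 arm.

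Among the 11 small-subunit genes the change that recurred was the fall of WDR3, a processome scaffold protein. The VP64_A libraries went from 31.5, 30.9 and 37.6 CPM at 0 h to 15.4, 15.8 and 10.9 at 6 h, 13.8, 16.8 and 19.5 at 12 h, and 16.2, 20.9 and 17.1 at 24 h. All 9 stimulated libraries were below the lowest 0 h library, with changes of -1.24 ± 0.19, -0.98 ± 0.19 and -0.89 ± 0.19. In H47_Ctrl WDR3 went from 23.4, 22.7 and 25.9 CPM to 11.2, 10.6 and 12.3 at 6 h (-1.08 ± 0.22, adjusted p = 0.000406) and was at 21.7, 21.9 and 16 by 12 h and 20.6, 15 and 17.1 by 24 h, differences that did not pass the test. VP64_Ctrl held 21.9, 22.5 and 14.4 CPM at 0 h, 11.3, 12.9 and 12.8 at 6 h, 18.2, 14.6 and 13.4 at 12 h, and 15.3, 14.3 and 15.3 at 24 h. H47_KO held 15.4, 19.2 and 29.2 CPM at 0 h, 15.8, 12.4 and 14.2 at 6 h, 25.2, 16.2 and 22.2 at 12 h, and 15.1, 14.9 and 18.5 at 24 h. The 0 h libraries of H47_KO were spread more widely than those of the other groups. WDR3 fell at 6 h in VP64_Ctrl too (-0.70 ± 0.20), a call lost without replicate 2 at 0 h or replicate 1 at 6 h. WDR43, another processome protein, rose in H47_KO at 6 h (0.74 ± 0.16) and 12 h (0.61 ± 0.15), where its 0 h libraries held 25.3, 29.4 and 29.4 CPM and its 6 h libraries 49.7, 49.6 and 41.3. LYAR, a nucleolar growth regulator, stood at 12.4, 11.9 and 17.5 CPM in VP64_A at 0 h and 4.96, 4.80 and 6.48 at 24 h (-1.32 ± 0.26, adjusted p = 0.000349). RRP12, an export factor, rose at 12 h in H47_Ctrl (0.81 ± 0.18), in every fit that left out 1 library. H47_Ctrl held 23.6, 17.1 and 20.3 CPM at 0 h, 21.7, 23.5 and 27.7 at 6 h, 29.4, 40.6 and 37.4 at 12 h, and 22.3, 24.8 and 22.4 at 24 h. H47_KO held 23.3, 25.4 and 23 CPM at 0 h, 35, 20.3 and 25.8 at 6 h, 30.7, 32 and 30.3 at 12 h, and 15.2, 19.7 and 19.2 at 24 h. VP64_Ctrl held 21.1, 34.1 and 36.2 CPM at 0 h, 23.1, 31.3 and 33 at 6 h, 44.8, 35.8 and 40.9 at 12 h, and 23, 22.4 and 21.9 at 24 h. VP64_A held 28.5, 29.9 and 33.3 CPM at 0 h, 34, 26.9 and 33.4 at 6 h, 29.2, 36.6 and 49.9 at 12 h, and 21.4, 24 and 19.6 at 24 h. The 12 h libraries of both Cas9 groups lay above their 0 h libraries, those of the VP64 groups did not. RRP9, NOL6, DDX10 and PNO1 were each called once, NOL6 at 6 h in VP64_Ctrl (-0.75 ± 0.20) only while replicate 3 at 0 h was included (-0.55 without it). The calls of RRP9 (24 h, VP64_A), PNO1 (12 h, VP64_Ctrl) and DDX10 (6 h, VP64_A) were lost in 5, 4 and 2 of 6 fits. UTP15 and UTP20, both of the processome, were not called. UTP20, the least abundant member, held 9.86, 12.7 and 7.02 CPM at 0 h, 14.4, 8.36 and 10.1 at 6 h, 8.46, 6.54 and 7.98 at 12 h, and 6.28, 6.08 and 7.13 at 24 h in H47_Ctrl. In H47_KO it held 6.72, 6.64 and 6.32 CPM at 0 h, 11, 9.91 and 6.78 at 6 h, 8.88, 9.80 and 8.09 at 12 h, and 10, 5.46 and 8.95 at 24 h. It held 9.68, 10 and 12.4 CPM at 0 h, 8.88, 7.82 and 10.4 at 6 h, 8.29, 7.84 and 7.39 at 12 h, and 8.23, 7.13 and 9.71 at 24 h in VP64_Ctrl. The VP64_A libraries held 6.61, 10.4 and 9.56 CPM at 0 h, 10.8, 8.75 and 5.69 at 6 h, 8.06, 8.11 and 4.22 at 12 h, and 13.1, 6.18 and 6.64 at 24 h.

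Of the 8 large-subunit genes, GNL3, PES1, DDX18 and NOP16 rose at 12 h in at least 1 group, NOP2, WDR12 and RRS1 were called lower, at 6 h, and BOP1 was not called. GNL3 (nucleostemin, a GTPase of dividing cells) went in H47_Ctrl from 91.3, 76.9 and 74.3 CPM to 139, 124 and 138 at 12 h, and in H47_KO from 61.2, 76.9 and 61.1 to 128, 125 and 132. VP64_Ctrl held 78.6, 62.4 and 63.3 CPM at 0 h, 75.3, 84.5 and 91 at 6 h, 129.1, 105.4 and 140.4 at 12 h, and 95, 91.4 and 87.8 at 24 h. All 12 h libraries stood above all 0 h libraries in these 3 groups. At 6 and 24 h H47_Ctrl held 68.9, 85.8 and 90.3 and 117.4, 116.8 and 98 CPM, and H47_KO 84.4, 84.7 and 90.1 and 98.2, 85 and 74.3. The 6 h level of H47_Ctrl was near that at 0 h (0.0077, adjusted p = 0.985), and the others lay between the 0 and 12 h levels for the most part. The rises at 12 h were 0.72 ± 0.14, 0.95 ± 0.14 and 0.87 ± 0.15, all 3 called in every fit that left out 1 library. In VP64_A, which held 104, 97.2 and 107 CPM at 0 h and 145, 107 and 130 at 12 h, the ranges overlapped (0.30, adjusted p = 0.161), with 89, 108.9 and 100.1 at 6 h and 118.3, 94.7 and 114.4 at 24 h. H47_Ctrl also rose at 24 h (0.45 ± 0.14, lost in 4 of 6 fits).

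PES1, part of the PeBoW complex that processes large-subunit rRNA, rose in VP64_Ctrl from 11.6, 7.46 and 5.69 CPM to 18.1, 31.6 and 18.8 at 12 h (1.45 ± 0.27, adjusted p = 0.00013), with 12.2, 19.2 and 13.3 at 6 h and 15.7, 18.2 and 11.8 at 24 h. VP64_A held 13.2, 18.1 and 13.5 CPM at 0 h, 26.9, 23.5 and 27.4 at 6 h, 22.6, 24.8 and 31.4 at 12 h, and 15.1, 22 and 8.69 at 24 h. Every 12 h library was above every 0 h library in these 2 groups and in H47_Ctrl, where the difference of 0.97 did not pass the test (adjusted p = 0.116). H47_Ctrl held 10.67, 13 and 13 CPM at 0 h, 7.76, 20.1 and 12 at 6 h, 22.4, 31.1 and 17.8 at 12 h, and 11, 18.2 and 12.8 at 24 h. H47_KO held 20.5, 12.1 and 7.5 CPM at 0 h, 14.1, 26.8 and 7.75 at 6 h, 21.3, 31.4 and 19.3 at 12 h, and 20.3, 10.3 and 3.43 at 24 h. The H47_KO replicates differed from each other more than the times did. Its rises at 6 and 24 h in VP64_Ctrl and at 6 and 12 h in VP64_A lay between 0.79 and 0.83 and were lost in 3 to 5 of 6 fits. Of the other PeBoW members, WDR12 fell at 6 h in VP64_Ctrl (-0.71 ± 0.21, lost without replicate 2 at 6 h) and in H47_KO (-0.74 ± 0.24), where the 0 and 6 h libraries overlapped and the call was lost in 4 of 6 fits (-0.96 to -0.48). DDX18, an RNA helicase, rose at 12 h in H47_KO (0.65 ± 0.20) and VP64_Ctrl (0.62 ± 0.19), each lost in 2 of 6 fits. NOP2, an rRNA methyltransferase, fell at 6 h in H47_KO, VP64_Ctrl and VP64_A, by 0.50 to 0.61. The call in VP64_Ctrl held in every fit that left out 1 library, and those in H47_KO and VP64_A were lost in 3 and 2 of 6. Every 6 h library was below every 0 h library in these groups and in H47_Ctrl. In H47_Ctrl NOP2 stood at -0.45 with an adjusted p of 0.0553. NOP16 rose once, at 12 h in H47_Ctrl (0.82 ± 0.23), and RRS1 fell once, at 6 h in H47_Ctrl (-0.65 ± 0.19, lost without replicate 3 of either time).

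DDX21, a nucleolar helicase that supports RNA polymerase I transcription, was called in the same 6 comparisons in time as MYC and in the same directions. In H47_Ctrl it went from 55.9, 48.3 and 47.5 CPM to 103, 107 and 92.5 at 6 h, 75.8, 61.8 and 74.3 at 12 h and 56.7, 44.4 and 38.3 at 24 h. In VP64_Ctrl it went from 41.7, 37.8 and 38.3 CPM to 81.3, 93.3 and 69.5 at 6 h. The rises at 6 h were 0.99 ± 0.15, 1.21 ± 0.15 and 1.06 ± 0.15 in H47_Ctrl, H47_KO and VP64_Ctrl, none of them lost when 1 library was left out. At 12 h they were 0.48 ± 0.15 in H47_Ctrl, lost in 4 of 6 fits, and 0.82 ± 0.15 in H47_KO. In VP64_A, at 60.3, 61.9 and 61.0 CPM before stimulation, the 6 h libraries reached 90.2, 82.6 and 67.5, and the difference of 0.39 did not pass the test (adjusted p = 0.0676). The fall at 24 h in VP64_A (-0.45 ± 0.15) was lost in all 6 fits that left out 1 library.

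NCL fell at 12 and 24 h in VP64_A and was called at no time in the other groups. It held 994, 1173 and 1170.0 CPM at 0 h, 786, 868 and 679 at 6 h, 663, 549 and 683 at 12 h, and 637, 618 and 646 at 24 h there, all 12 and 24 h libraries being below all 0 h libraries (-0.82 ± 0.20 and -0.81 ± 0.20). VP64_Ctrl held 635, 683 and 366 CPM at 0 h, 724, 623 and 713 at 6 h, 538, 464 and 621 at 12 h, and 584, 505 and 575 at 24 h, with no difference that passed the test. H47_Ctrl held 655, 811 and 642 CPM at 0 h, 489, 691 and 659.5 at 6 h, 434, 487 and 582 at 12 h, and 676, 503 and 508 at 24 h. H47_KO held 547, 619.5 and 438 CPM at 0 h, 597, 618 and 510.0 at 6 h, 690.0, 528 and 512 at 12 h, and 663, 373 and 418 at 24 h, again without a call. The interaction between the VP64 groups at 24 h was -0.80 ± 0.28 (adjusted p = 0.484), so the fall was not shown to differ from VP64_Ctrl. NPM1 was called at no time. VP64_A held 3078, 2408 and 3048 CPM at 0 h, 1974, 3063 and 2508 at 6 h, 2658, 1776 and 2511 at 12 h, and 2141, 1754 and 2190.0 at 24 h. VP64_Ctrl held 1820.0, 2025 and 874 CPM at 0 h, 2562, 2296 and 2506 at 6 h, 2087, 1357 and 2212 at 12 h, and 1663, 1283 and 1302 at 24 h. H47_Ctrl held 2122, 2523 and 1970.0 CPM at 0 h, 1190.0, 2518 and 2158 at 6 h, 1500.0, 1385 and 1868 at 12 h, and 2074, 1802 and 1624 at 24 h. H47_KO held 1907, 2196 and 1222 CPM at 0 h, 2046, 2455 and 1978 at 6 h, 2317, 1582 and 1667 at 12 h, and 1878, 1085 and 1098 at 24 h. Replicates of a condition spread widely for this gene, as at 0 h in VP64_Ctrl.

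**Figure D2:**
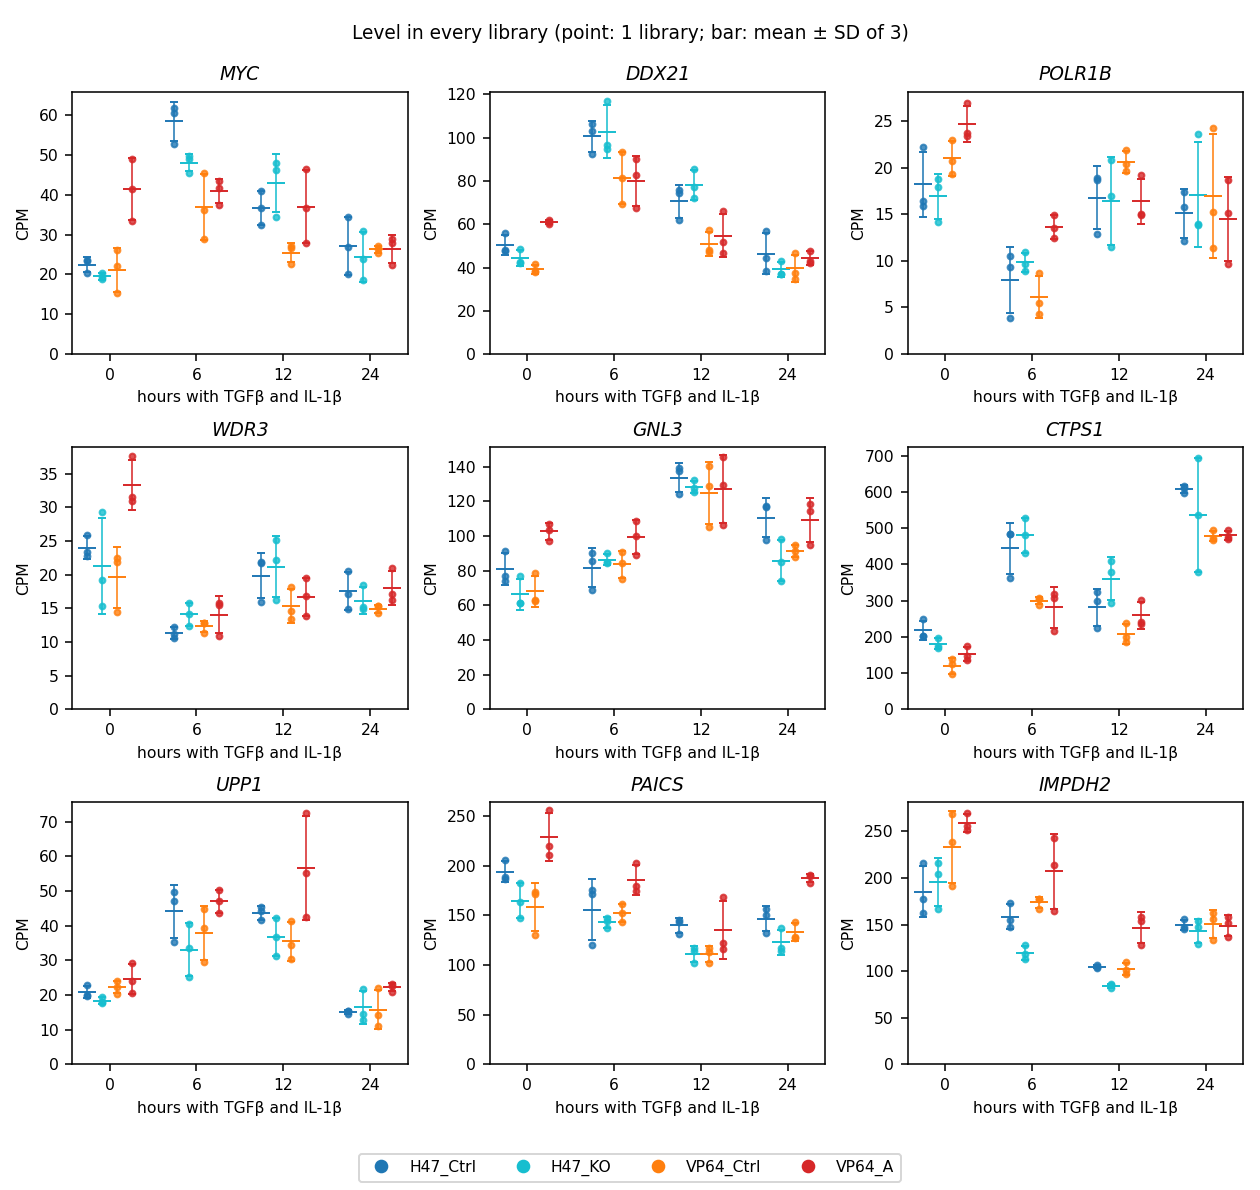
Level in CPM (linear axis) of 9 members in each library at 0, 6, 12 and 24 h, by group, with the mean ± SD of the 3 libraries of a condition. MYC and DDX21 have their highest means at 6 h, other than MYC in VP64_A, POLR1B and WDR3 are low at 6 h, CTPS1 is highest at 24 h, and IMPDH2 is lowest at 12 h.

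Pyrimidine genes gave the largest rise of any member in time. CTPS1 went in VP64_Ctrl from 125, 140 and 95.8 CPM at 0 h to 288, 305 and 306 at 6 h, 186, 199 and 239 at 12 h, and 494, 467 and 473 at 24 h. In H47_Ctrl it went from 248, 201 and 203 CPM to 364, 485 and 483 at 6 h, 225, 298 and 323 at 12 h and 596, 610.4 and 616 at 24 h. H47_KO held 175, 197 and 169.8 CPM at 0 h, 480.1, 528 and 432 at 6 h, 409, 293 and 378 at 12 h, and 693, 537 and 378 at 24 h. VP64_A held 135, 148 and 174 CPM at 0 h, 216, 319 and 308 at 6 h, 240.2, 234 and 302 at 12 h, and 476, 471 and 494 at 24 h. Levels at 6 and 24 h were above all 0 h libraries in all 4 groups, and the mean at 12 h was below those at 6 and 24 h in each, a dip that was not itself tested. The changes at 24 h were 1.48 ± 0.20, 1.57 ± 0.20, 1.99 ± 0.18 and 1.66 ± 0.18 in H47_Ctrl, H47_KO, VP64_Ctrl and VP64_A, and that in VP64_Ctrl had an adjusted p of 2.24e-10. All 11 calls of CTPS1, which were all its comparisons in time but 12 h in H47_Ctrl (0.37, adjusted p = 0.203), held in every fit that left out 1 library.

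UPP1, the uridine phosphorylase that releases ribose from uridine, rose and returned. In H47_Ctrl it went from 19.9, 20 and 23 CPM to 47.1, 35.4 and 49.8 at 6 h, 41.6, 44.1 and 45.3 at 12 h, and 15.4, 14.5 and 15.5 at 24 h, the last below every 0 h library. The rise was 1.08 ± 0.18, 0.87 ± 0.19, 0.80 ± 0.20 and 0.95 ± 0.20 at 6 h in H47_Ctrl, H47_KO, VP64_Ctrl and VP64_A, and 1.07 ± 0.19, 1.01 ± 0.18, 0.68 ± 0.20 and 1.22 ± 0.20 at 12 h, while at 24 h no difference passed the test. The VP64_Ctrl value at 6 h was -0.03 on the TPM scale, and that at 12 h was lost without replicate 2 at 12 h (0.54). CAD and UMPS, enzymes of de novo synthesis, fell at 6 h in 3 of the 4 groups. CAD, which carries out the first 3 steps of the pathway, fell in H47_KO (-0.68 ± 0.25), VP64_Ctrl (-0.92 ± 0.19) and VP64_A (-0.58 ± 0.19), and UMPS, which makes UMP, fell in the same groups by 0.62 ± 0.18, 0.69 ± 0.18 and 0.50 ± 0.18. In VP64_Ctrl CAD stood at 45.3, 44.9 and 60.0 CPM at 0 h and 26.4, 27.5 and 24.9 at 6 h, and it was still lower at 12 h (-0.67 ± 0.19). Neither passed the test in H47_Ctrl (-0.10 and -0.18), and the calls in H47_KO and VP64_A were lost in 3 to 6 of the 6 fits, while UMPS in VP64_Ctrl was lost without replicate 2 at 6 h.

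In purine synthesis, IMPDH2 and PAICS fell at 12 h in all 4 groups, ATIC in 3 and GART in 1. IMPDH2, which turns IMP toward GMP, went in H47_KO from 216, 204 and 167 CPM to 118, 113 and 128 at 6 h, 85.4, 81.5 and 85.9 at 12 h, and 129, 147 and 154 at 24 h. In VP64_Ctrl it held 238, 269 and 192 CPM at 0 h, 167, 177 and 178 at 6 h, 100.8, 96.5 and 109.7 at 12 h, and 156, 133 and 162 at 24 h. H47_Ctrl held 163, 177 and 216 CPM at 0 h, 173, 147 and 155 at 6 h, 103.0, 106.6 and 104.8 at 12 h, and 156, 148 and 145 at 24 h. VP64_A held 269.7, 256 and 252 CPM at 0 h, 164, 214 and 243 at 6 h, 128.2, 154 and 158 at 12 h, and 151, 136 and 159 at 24 h. The 12 h libraries were below all 0 h libraries in every group, with changes of -0.82 ± 0.14, -1.21 ± 0.14, -1.19 ± 0.16 and -0.82 ± 0.16 in H47_Ctrl, H47_KO, VP64_Ctrl and VP64_A, all 4 called in every fit that left out 1 library. At 6 h it had fallen in H47_KO (-0.71 ± 0.14) and VP64_Ctrl (-0.42 ± 0.16, lost in 5 of 6 fits). At 24 h IMPDH2 was lower than at 0 h in VP64_Ctrl (-0.63 ± 0.16), VP64_A (-0.80 ± 0.16) and H47_KO (-0.45 ± 0.14, lost in 4 of 6 fits). Its isoenzyme IMPDH1 was the other way at 12 h, with rises of 0.58 ± 0.18 in H47_Ctrl and 0.47 ± 0.17 in VP64_Ctrl that were lost in 4 and 5 of the 6 fits, and the VP64_Ctrl value was -0.12 on the TPM scale.

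PAICS, a bifunctional enzyme of the middle of the pathway, was lower in all 4 groups at 12 h, by 0.47 ± 0.15, 0.56 ± 0.15, 0.52 ± 0.16 and 0.76 ± 0.16. H47_KO held 164, 183 and 147 CPM at 0 h, 144, 147 and 137 at 6 h, 117.5, 114.0 and 102.3 at 12 h, and 137, 113.8 and 117.4 at 24 h. H47_Ctrl held 186, 189 and 206 CPM at 0 h, 120.2, 175 and 172 at 6 h, 131, 145 and 144 at 12 h, and 157, 132 and 150.3 at 24 h. VP64_Ctrl held 174, 171 and 130.0 CPM at 0 h, 144, 152 and 162 at 6 h, 113.5, 102.3 and 117.1 at 12 h, and 143, 128.6 and 127.5 at 24 h. VP64_A held 219.5, 211 and 256 CPM at 0 h, 179, 203 and 174 at 6 h, 169, 121.8 and 115.8 at 12 h, and 183, 191 and 189 at 24 h. In every group all 12 h libraries were below all 0 h libraries. The calls in H47_KO and VP64_A held in every fit that left out 1 library, and those in H47_Ctrl and VP64_Ctrl were each lost in 2. ATIC, which completes IMP, fell at 12 h in H47_KO (-0.69 ± 0.14), VP64_Ctrl (-0.41 ± 0.14, lost in 4 of 6 fits) and VP64_A (-0.55 ± 0.14), from 131, 125 and 107 CPM to 75.2, 75.0 and 75.4 in H47_KO. At 24 h ATIC was lower in VP64_A (-0.65 ± 0.14), in every fit that left out 1 library, and in H47_KO (-0.44 ± 0.14, lost in 5 of 6 fits). PAICS was lower at 24 h in H47_KO alone by the test (-0.42 ± 0.15, lost in 4 of 6 fits). GART, which carries out 3 steps before PAICS, fell at 12 h in VP64_A (-0.41 ± 0.13, lost without replicate 1 or 3 at 12 h) and stood at -0.17 in VP64_Ctrl, and the difference between these responses was not tested. PPAT, the enzyme that commits PRPP to purines, PRPS2, which makes PRPP, and MTHFD1L, the mitochondrial source of formate, were called in no comparison.

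A further 219 genes of the same pathways were examined beside the 45, of which 213 were tested in the Cas9 arm and 214 in the VP64 arm. In H47_Ctrl 21 rose and 8 fell at 6 h (9.86% and 3.76% of them, against 10.3% and 5.6% of all genes). The numbers were 21 and 11 at 12 h (9.86% and 5.16%, against 11.3% and 8.27%) and 12 and 2 at 24 h (5.63% and 0.939%, against 6.53% and 3.73%). In H47_KO the numbers were 22 and 21 (10.3% and 9.86%, against 13.2% and 10.8%), 29 and 20 (13.6% and 9.39%, against 14.4% and 13%) and 20 and 10 (9.39% and 4.70%, against 9.07% and 6.78%). In VP64_Ctrl they were 25 and 32 (11.7% and 14.9%, against 16.2% and 12.6%), 29 and 19 (13.6% and 8.88%, against 15.3% and 11.5%) and 17 and 12 (7.94% and 5.61%, against 10.4% and 5.57%). In VP64_A they were 16 and 14 (7.48% and 6.54%, against 11.4% and 5.93%), 18 and 14 (8.41% and 6.54%, against 12.6% and 7.1%) and 10 and 16 (4.67% and 7.48%, against 9% and 4.55%). The greatest rises were in the handling of finished purines. AMPD3, the AMP deaminase, went in H47_Ctrl from 3.51, 4.18 and 5.67 CPM to 58.8, 65.9 and 74.1 at 6 h, 152, 147 and 138 at 12 h, and 30.4, 25.7 and 35.4 at 24 h. The rise at 12 h was 5.07 ± 0.19 there and 4.82, 4.49 and 4.44 in H47_KO, VP64_Ctrl and VP64_A. PNP, which splits inosine and guanosine, went in H47_Ctrl from 17.4, 20 and 17.6 CPM to 154, 144 and 141 at 12 h (2.99 ± 0.16), with rises of 3.06, 2.33 and 2.95 in the other groups. AK4, a mitochondrial adenylate kinase, rose by 24 h in H47_Ctrl (2.16 ± 0.28) and H47_KO (2.89 ± 0.28). PSAT1, an enzyme of serine synthesis and so of one-carbon supply, fell at 12 h in the same groups (-1.46 ± 0.20 and -1.56 ± 0.20).

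GLIS3 knockout was compared with control at each time, the question being whether these pathways follow the presence of GLIS3. None of the 45 members passed the edgeR test at 0, 6, 12 or 24 h, where 0.173% and 0.128%, 0.274% and 0.0456%, 0.0547% and 0.0274%, and 0.137% and 0.073% of all genes were higher and lower. At an unadjusted p below 0.05 the numbers were 5, 8, 4 and 4, where 11.4%, 11.2%, 7.68% and 10% of all genes were. DESeq2 called 0, 0, 0 and 1, and limma on the TPM scale called 0 at each time. The nearest was POLR1A at 24 h, at 21.9, 20.9 and 32.1 CPM in H47_KO and 12.6, 9.81 and 12.6 in H47_Ctrl (1.09 ± 0.25, adjusted p = 0.0604). It did not overlap between the groups and 1 member passed the test without replicate 1 of H47_KO at 24 h. The members' median difference lay between -0.13 and -0.01, and GLIS3 itself was called at 0 h alone (-2.55 ± 0.56, adjusted p = 0.0355). Whether the response to stimulation differed between the 2 groups was tested as an interaction. No member was called at 6 h (0.00912% and 0% of all genes) or 24 h (0% and 0%), with 3 and 3 members at an unadjusted p below 0.05 (7.93% and 5.62% of all genes) and 0 by DESeq2 and by limma. Of the wider genes, PSAT1 was lower in H47_KO at 0 h (-0.79 ± 0.18, adjusted p = 0.0385) and at 24 h (-1.15 ± 0.18, adjusted p = 0.00126), when its libraries held 25.5, 29.7 and 31.1 CPM against 65.3, 60.8 and 65.2. PHGDH, the step before it, was lower at 12 h (-0.98 ± 0.18).

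Before stimulation, 12 members were higher in VP64_A than in VP64_Ctrl and 0 were lower, where 4.29% and 5.12% of all genes were higher and lower. In size order these were PRPS1 (3.05 ± 0.16), NCL (0.99 ± 0.20), MYC (0.96 ± 0.19), NPM1 (0.85 ± 0.26), PES1 (0.83 ± 0.27), WDR3 (0.75 ± 0.18), DDX21 (0.64 ± 0.15), GNL3 (0.59 ± 0.15), PAICS (0.53 ± 0.15), GART (0.47 ± 0.12), NOP56 (0.47 ± 0.14) and TSR1, a late small-subunit factor (0.43 ± 0.14). The median over the 45 was 0.34 and 38 were positive, against -0.02 over all genes. The same 0 h libraries of VP64_A are the start of its changes with time. These calls and the falls at 24 h in VP64_A are therefore not independent. MYC stood at 49.0, 33.5 and 41.5 CPM in VP64_A against 22, 26 and 15.3 in VP64_Ctrl, and NCL at 994, 1173 and 1170.0 against 635, 683 and 366. GART was at 85.5, 88.4 and 88.0 CPM against 61.1, 61.6 and 66.3, and DDX21 at 60.3, 61.9 and 61.0 against 41.7, 37.8 and 38.3, so that none of these 4 genes overlapped between the groups. Replicate 3 of VP64_Ctrl, the library that stood apart within its condition, was the lowest for MYC and NCL.

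Without that library 5 of the 12 were called, MYC, NCL, DDX21, PRPS1 and GART, and these 5 were called in every fit that left out 1 library. Leaving out replicate 3 of VP64_A gave 7. WDR3 (0.58) and GNL3 (0.53) were lost without replicate 3 of VP64_Ctrl alone, and NOP56, TSR1, PES1, NPM1 and PAICS were lost in 3 to 5 of the 6 fits. On the TPM scale 3 members were called, where the median over all genes was -0.33 and that over the members was -0.05, so the sign of the members' median depended on the scaling, although it lay above that of all genes by both.

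Fewer members were called after stimulation. At 6 h 3 members were higher and 0 lower (1.86% and 1.9% of all genes), at 12 h 2 and 0 (2.37% and 1.94%), and at 24 h 1 and 0 (1.99% and 2.13%), and the members' median went from 0.34 to 0.23, 0.10 and 0.09. The 6 h calls beside PRPS1 were POLR1B, at 13.6, 14.9 and 12.4 CPM against 5.44, 4.29 and 8.69 (1.26 ± 0.28, lost without replicate 1 or 2 of VP64_Ctrl at 6 h, with a range of 1.09 to 1.46), and WDR12 (0.85 ± 0.22, lost in 3 of 6 fits). Without replicate 2 of VP64_Ctrl at 6 h only PRPS1 was called. At 12 h the second call was UPP1 (0.68 ± 0.20), lost without replicate 2 or 3 of VP64_A or replicate 1 or 3 of VP64_Ctrl (0.47 to 0.83), and 4 members were called without replicate 1 of VP64_A. The change in the difference itself was tested as an interaction. No member was called at 6 h (0.0546% and 0.0364% of all genes) or at 24 h (0.128% and 0.082%) by edgeR, and 6 and 7 members had an unadjusted p below 0.05 (9.43% and 7.11% of all genes), with 0 by DESeq2 and by limma. Among them MYC had -0.84 ± 0.27 at 6 h (adjusted p = 0.316) and -0.96 ± 0.28 at 24 h (adjusted p = 0.228). Its rise in VP64_Ctrl and its absence in VP64_A were thus not shown to differ.

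**Figure D3:**
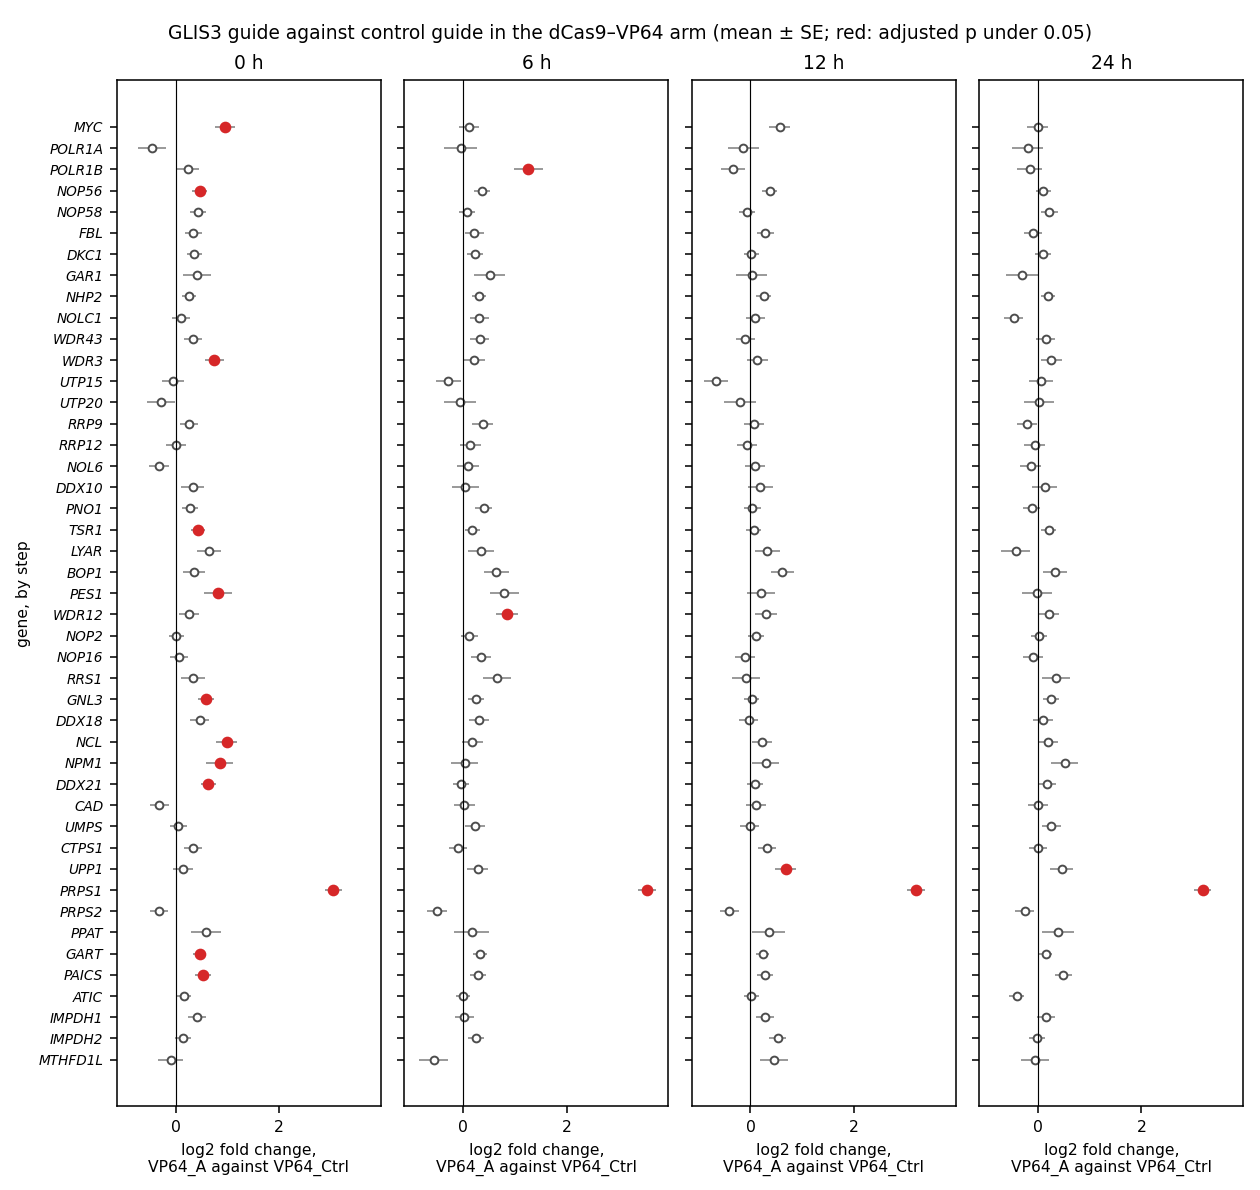
Log2 fold change of VP64_A against VP64_Ctrl with its SE for the 45 genes at each of the 4 times, in red where the adjusted p was below 0.05 (edgeR). At 0 h 12 genes are red and all lie above 0, and at 24 h PRPS1 alone is red, at 3.18.

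PRPS1, the phosphoribosyl pyrophosphate synthetase that feeds both purine and pyrimidine synthesis, stood apart from all other members. It lies at chrX:107628510-107651026 (GRCh38). The VP64_A libraries held 197, 204 and 179 CPM at 0 h, 190.3, 265 and 229 at 6 h, 174, 174 and 172 at 12 h and 184, 189 and 154 at 24 h. The VP64_Ctrl libraries held 21.5, 25.8 and 22.8 CPM at 0 h, 17.2, 24.0 and 16.2 at 6 h, 18.1, 20.6 and 17.6 at 12 h and 18.2, 18.1 and 21.2 at 24 h. The lowest VP64_A library was thus above the highest VP64_Ctrl library at every time, and the other arm was as low, between 11.8 and 26.1 CPM in H47_Ctrl and between 7.89 and 15.5 in H47_KO. In full, H47_Ctrl held 18.1, 21.3 and 15.9 CPM at 0 h, 14.5, 26.1 and 18.2 at 6 h, 11.8, 14.7 and 14.1 at 12 h, and 20.2, 20.6 and 19.5 at 24 h. H47_KO held 11.8, 12.3 and 14.6 CPM at 0 h, 7.89, 14.9 and 14.2 at 6 h, 10, 14.6 and 8.61 at 12 h, and 14.7, 15.5 and 11.8 at 24 h. The folds were 8.29, 11.8, 9.18 and 9.07 at 0, 6, 12 and 24 h (log2 3.05 ± 0.16, 3.56 ± 0.17, 3.20 ± 0.17 and 3.18 ± 0.17), with adjusted p between 5.13e-16 and 5.3e-15, and all 4 were called in every fit that left out 1 library. No change of PRPS1 with time passed the test in any of the 4 groups. Its paralogue PRPS2 was at 21, 16 and 21.8 CPM in VP64_A and 24.1, 20.8 and 28.4 in VP64_Ctrl at 0 h, a difference of -0.31, and -0.50, -0.41 and -0.26 later, none of which passed the test. H47_KO and H47_Ctrl did not differ in PRPS1 by the test at any time.

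**Figure D4:**
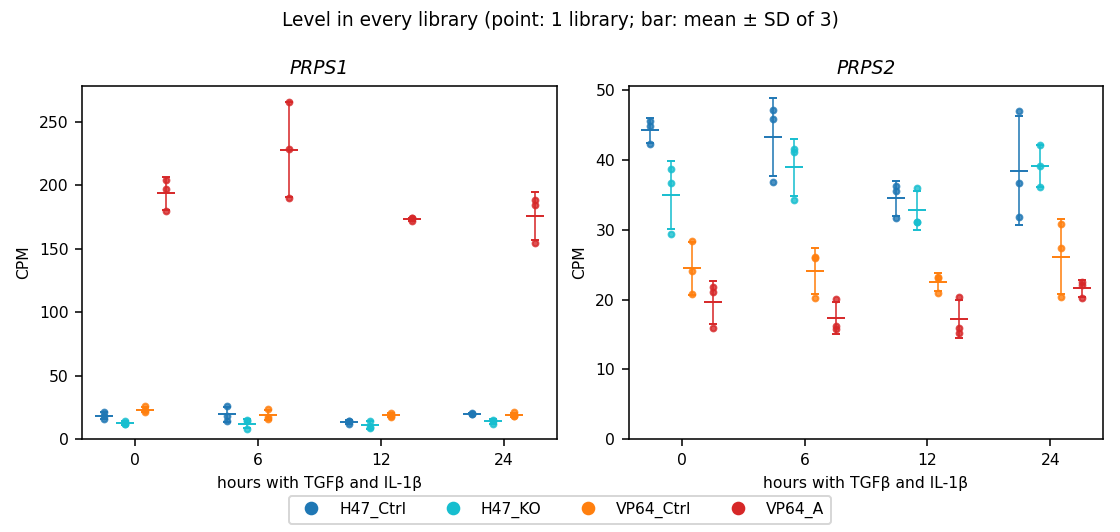
Level in CPM of PRPS1 and PRPS2 in each library of the 4 groups at 0, 6, 12 and 24 h. For PRPS1 the VP64_A libraries lie between 154 and 265 CPM and all others at or below 26.1, whereas the PRPS2 libraries of VP64_A and VP64_Ctrl overlap or adjoin.

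Genes around PRPS1 were examined within 500 kb. FRMPD3, which ends 23.3 kb before PRPS1, was too low to be tested, with 0 to 19 counts per library in VP64_A and 0 to 3 in VP64_Ctrl, and at 24 h 6 to 19 against 0 in each. TSC22D3, a glucocorticoid-induced leucine zipper gene 62.2 kb after it, was at 22.3 ± 3.55 CPM (SD, n = 3) against 8.81 ± 1.48 at 12 h (log2 1.33 ± 0.27, adjusted p = 0.00142) and 22 ± 3.10 against 8.62 ± 1.72 at 24 h (1.33 ± 0.26, adjusted p = 0.00127), but at 9.84 against 9.35 at 0 h, a difference of 0.10. MID2, PSMD10 and ATG4A did not pass the test at any time. The guide that the study lists for GLIS3 activation was taken to be that of VP64_A. It was set against every 20-base site followed by NGG within 200 kb of PRPS1 on both strands. Of 53586 such sites the closest had 6 mismatches. Binding of the guide near PRPS1 was not tested. AK4 showed a like separation among the wider genes, at 27.8, 26.3 and 23.9 CPM in VP64_A against 5.13, 5.97 and 8.24 in VP64_Ctrl at 0 h (2.05 ± 0.20, adjusted p = 5.84e-09), and 1.97, 1.99 and 1.68 at 6, 12 and 24 h. Of the 214 wider genes, 11 were higher and 1 lower at 0 h (5.14% and 0.467%, against 4.29% and 5.12% of all genes), 4 and 0 at 6 h (1.87% and 0%, against 1.86% and 1.9%). The numbers were 5 and 2 at 12 h (2.34% and 0.935%, against 2.37% and 1.94%) and 3 and 2 at 24 h (1.40% and 0.935%, against 1.99% and 2.13%). Among 8 tested genes of the p53 and nucleolar stress response 0 were higher and 2 lower at 0 h (4.29% and 5.12% of all genes), 0 and 3 at 6 h (1.86% and 1.9%). There were 1 and 0 at 12 h (2.37% and 1.94%) and 0 and 1 at 24 h (1.99% and 2.13%). The genes called, named after their values were seen, were CDKN1A, a cell cycle inhibitor, at 0, 6 and 24 h (-1.33 ± 0.23, -1.14 ± 0.22 and -0.84 ± 0.23), TP53I3 at 0 and 6 h (-0.68 ± 0.15 and -0.69 ± 0.17), GDF15 at 6 h (-3.93 ± 0.88), and SESN2 at 12 h (0.89 ± 0.24).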

How the data were processed

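RNA of 48 libraries was sequenced as poly(A)-selected Nextera XT libraries. Per the labels and the study's methods, the authors trimmed reads with Trim Galore, removed ribosomal reads with SortMeRNA, aligned to GRCh38 with STAR and quantified with Salmon. They deposited 2 tables of 29744 genes, 1 of estimated counts (6.38% of values not whole) and 1 of TPM, and 0 columns were left unmatched to a sample. Estimated counts were rounded. Within each arm (24 libraries, 8 conditions) genes were filtered with filterByExpr (minimum count 10, minimum total 15), leaving 10962 and 10980, scaled by TMM and tested with edgeR 4.0.16 (R 4.3.3), adjusted over all genes tested at 0.05. CPM values are TMM-scaled. Alternatives were DESeq2 1.42.0, its size factors, no filter, only the libraries compared, a replicate block, 1 library left out, and limma 3.58.1 on log2(TPM + 1). The scripts were tested on simulated counts. Given with every library were MYC and, in each role group, the member with the largest change at 24 h in each control group and in each group comparison at its time with most calls, and other members were given per library after their values were seen. Wider genes were named as the 2 largest called changes in a direction. The members and gene lists were chosen with earlier results of these data known.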

Additional observations from a re-analysis of the deposited data

How the results depend on the processing

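Of 132 calls of members, the direction and the call were kept for 127 with DESeq2, 127 with its size factors, 129 with the replicate block, 106 without a filter, 107 with only the libraries compared, 74 with limma on the TPM scale and 587 of 792 with 1 library left out, and the direction turned for 6, all with limma in VP64_Ctrl, namely NOP58 at 6 h (-0.31) and 12 h (-0.17), UPP1 at 6 h (-0.0299) and, at 12 h, PNO1 (-0.15), DDX18 (-0.0009) and IMPDH1 (-0.12). The median of all genes was -0.65 and -0.51 there on that scale. Limma gave 4, 6 and 4 called members at 6, 12 and 24 h in H47_Ctrl, 6 and 1 at 12 and 24 h in H47_KO, 32 (1 higher, 31 lower) and 9 at 6 and 24 h in VP64_Ctrl, and 3, 1, 1 and 2 for VP64_A against VP64_Ctrl at 0, 6, 12 and 24 h. With only the libraries compared the counts were 16 at 12 h in H47_Ctrl, 1 at 24 h in H47_KO, and 6, 1 and 3 for VP64_A against VP64_Ctrl at 0, 12 and 24 h. Without a filter they were 1 at 24 h in H47_Ctrl, 1 at 24 h in H47_KO and 1 for H47_KO against H47_Ctrl at 24 h. DESeq2 gave 1 for the last and 2 for VP64_A against VP64_Ctrl at 24 h. With 1 library left out, counts lay between 1 and 2 (24 h) in H47_Ctrl, 6 and 14 (6 h) and 1 and 5 (24 h) in H47_KO, 0 and 1 (H47_KO against H47_Ctrl, 24 h), 10 and 15, 6 and 11, and 3 and 8 (6, 12 and 24 h) in VP64_Ctrl, 5 and 8 (6 h) in VP64_A, and 5 and 11, 1 and 3, and 1 and 4 (VP64_A against VP64_Ctrl at 0, 6 and 12 h). The cause of these shifts was not tested. The libraries were not taken as paired by replicate number, since no label says that a number marks a shared culture or day. In the Cas9 and VP64 arms 6 and 7 of 84 same-numbered pairs had a correlation of deviations over 0.1 (means of 0.00485 and 0.0153, ranges of -0.181 to 0.151 and -0.131 to 0.19). Among pairs with different numbers 7 and 9 of 168 did (means of -0.00234 and -0.00759). Same-numbered pairs were thus slightly higher on both measures. Of 24 libraries in each arm 10 and 13 correlated best with their own number, against 8 if all numbers were alike. The replicate block gave 1 call for H47_KO against H47_Ctrl at 24 h. A member had as few as 6 counts in a library, and the part of depth in the missing calls was not tested.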
